A study of Homo sapiens with 6 samples.

Results

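The transcription factors of the epithelial-mesenchymal transition (EMT) were followed in RNA-seq of A375 cells, a human melanoma line, with and without a functional RIPK4 gene. The members were the 9 genes SNAI1, SNAI2, ZEB1, ZEB2, TWIST1, TWIST2, PRRX1, GRHL2 and OVOL1, each looked up by its exact symbol among the 20851 genes of the count table. A row was found for 7 of the 9. GRHL2 and OVOL1 had no row in the table used here. Of the 7, 6 had counts high enough for the test, and TWIST2 did not. 1 of the 6, ZEB2, differed between the groups: its normalized count was 1.78-fold lower in the RIPK4 knockout, whereas ZEB1 differed by less than the spread between libraries.

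A375RIPK4.KO is clone #1 of a CRISPR/Cas9 line made with a lentiviral guide RNA against RIPK4, a serine/threonine kinase, and A375neg is its control, labelled as a GFP control and described in the study's methods as carrying a nontargeting guide RNA. Both were grown in RPMI-1640 medium with 10% serum, without drug treatment, and each gave 3 libraries that the series calls biological replicates. Since all knockout libraries came from 1 clone, an effect of the clone and an effect of the knockout cannot be told apart. The libraries were poly(A)-enriched and strand-specific, and held 21882863 to 26694140 counts each.

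EMT transcription factors are a small set of regulators that shift cells between an epithelial state, with tight cell-cell junctions, and a mesenchymal, motile state. SNAIL (SNAI1), SLUG (SNAI2), ZEB1 and ZEB2 are zinc finger repressors that bind E-box motifs in promoters of epithelial genes, TWIST1 and TWIST2 are basic helix-loop-helix (bHLH) factors that bind E-boxes as dimers, and PRRX1 is a homeodomain factor. GRHL2 and OVOL1 act on the epithelial side and oppose ZEB factors. In cells of the melanocyte lineage the set is used differently: SNAI2 and ZEB2 belong to the differentiated state, and in melanoma a switch from ZEB2 and SNAI2 to ZEB1 and TWIST1 has been described as a mark of dedifferentiation. ZEB1 and ZEB2 mRNAs are also textbook targets of the miR-200 family of microRNAs, which in turn are repressed by ZEB proteins.

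The sequences of this loop are shown because ZEB1 and ZEB2, the pair on which the results turn, share them. The 5 mature miR-200 microRNAs, from RefSeq (GRCh38.p14), fall into 2 groups by seed, bases 2 to 8 of the mature strand, printed in capitals. hsa-miR-200a-3p and hsa-miR-141-3p share the seed AACACUG, and the other 3 share AAUACUG.
hsa-miR-200a-3p: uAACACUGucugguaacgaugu
hsa-miR-141-3p: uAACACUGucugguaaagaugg
hsa-miR-200b-3p: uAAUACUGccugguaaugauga
hsa-miR-200c-3p: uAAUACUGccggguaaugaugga
hsa-miR-429: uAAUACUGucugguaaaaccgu
Matches to the seeds, CAGTGTT and CAGTATT in the mRNA, were counted in the 3′ untranslated region (UTR) of 1 transcript per gene. ZEB1 held 6 CAGTATT and 3 CAGTGTT matches in 2549 bases, and ZEB2 held 5 CAGTATT and 4 CAGTGTT matches in 5370 bases. GRHL2 held 1 match, and SNAI1, TWIST1, TWIST2, PRRX1 and OVOL1 held 0. SNAI2 was not searched. The first 2 CAGTATT matches after the stop codon of each ZEB gene are printed with the match in capitals (GRCh38).
ZEB1 site, chr10:31527618-31527640, plus strand: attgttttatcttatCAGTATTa
ZEB1 site, chr10:31527712-31527734, plus strand: atgctaaatccgcttCAGTATTt
ZEB2 site, chr2:144389052-144389074, minus strand: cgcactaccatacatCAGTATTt
ZEB2 site, chr2:144388989-144389011, minus strand: cgcactacaatgcatCAGTATTa
A match of letters is a description of the transcript, and the microRNAs themselves were not measured in these libraries. MIR200CHG, the host gene of miR-200c and miR-141, had no row.

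The promoters of the ZEB pair are shown because the 2 genes differed in their change between the groups. Each window runs from upstream of the annotated start into the first bases of the transcript, 300 bases in all (RefSeq, GRCh38.p14), with matches to the E-box CAGGTG, or CACCTG on the other strand, in capitals.
ZEB1 promoter, chr10:31318167-31318466, plus strand: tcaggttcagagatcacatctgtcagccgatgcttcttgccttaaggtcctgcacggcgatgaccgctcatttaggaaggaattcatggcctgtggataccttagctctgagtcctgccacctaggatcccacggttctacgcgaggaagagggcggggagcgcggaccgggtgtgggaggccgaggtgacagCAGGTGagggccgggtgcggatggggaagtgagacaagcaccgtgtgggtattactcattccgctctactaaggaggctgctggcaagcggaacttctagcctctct
ZEB2 promoter, chr2:144520070-144520369, minus strand: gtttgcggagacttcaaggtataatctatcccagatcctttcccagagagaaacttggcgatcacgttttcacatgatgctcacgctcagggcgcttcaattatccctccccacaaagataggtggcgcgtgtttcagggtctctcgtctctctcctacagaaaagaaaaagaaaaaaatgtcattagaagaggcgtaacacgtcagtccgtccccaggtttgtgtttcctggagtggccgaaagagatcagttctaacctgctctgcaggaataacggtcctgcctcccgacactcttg
The ZEB1 window held 1 match and the ZEB2 window 0. ZEB1 has 7 annotated windows, 2 of them with a match, and ZEB2 has 1. Over all 35116 promoter windows of the annotation, 20.6% held a match.

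The knockout was first checked at its target. RIPK4 had 319, 368 and 404 raw counts in the A375neg libraries and 42, 51 and 61 in the A375RIPK4.KO libraries, a log2 fold change of -2.69 ± 0.17 (SE; edgeR adjusted p = 1.01e-05). The groups did not overlap, and RIPK4 mRNA was reduced but not absent in the knockout clone. Across the table, 14443 genes were tested, and 1306 of them (9.04%) were called, meaning an adjusted p under 0.05 (edgeR's quasi-likelihood test, adjusted by Benjamini and Hochberg's method across the table) and a fold change of at least 1.5. They divided into 634 higher (4.39%) and 672 lower (4.65%) in A375RIPK4.KO. Normalized counts, which are raw counts scaled for library size, did not overlap between the groups for 5269 genes (36.5%). Among the 6 tested members, 1 was called against that background of 9.04%, and the groups did not overlap for 2 (ZEB2 and PRRX1) against 36.5%. The median log2 fold change was 0.097 over the tested members and -0.0047 over all genes tested.

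Levels can be compared between genes only per length, so normalized counts were divided by the length of 1 transcript per gene in kilobases (kb). In A375neg, ZEB1 stood first at 202.8 ± 9.40 normalized counts per kb (SD, n = 3), followed by SNAI1 at 106.1 ± 15.5 and TWIST1 at 81.3 ± 12.9. The ranges of mean ± SD of SNAI1 and TWIST1 overlapped, so the order of these neighbours was not separated by their spread. ZEB2 at 55.0 ± 3.50 and PRRX1 at 44.3 ± 2.46 came next and did not overlap. SNAI2 at 2.75 ± 3.01 and TWIST2 at 1.37 ± 1.35 were near the floor, with single-digit raw counts in 5 of the 6 library values. In A375RIPK4.KO, ZEB1 stood at 208.0 ± 24.5, SNAI1 at 122.3 ± 5.87 and TWIST1 at 90.7 ± 5.39 normalized counts per kb, all apart from each other. PRRX1 at 34.9 ± 3.24 and ZEB2 at 30.8 ± 3.12 overlapped there. Thus ZEB2 lay above PRRX1 in the control. Within the knockout libraries, ZEB2 stood at 31.05, 27.6 and 33.8 per kb beside 31.13, 36.5 and 36.9 for PRRX1, nearly equal in replicate 1. The order of genes depends on the transcript chosen for the length. ZEB1 was the most abundant member in each of the 6 libraries.

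**Figure D1:**
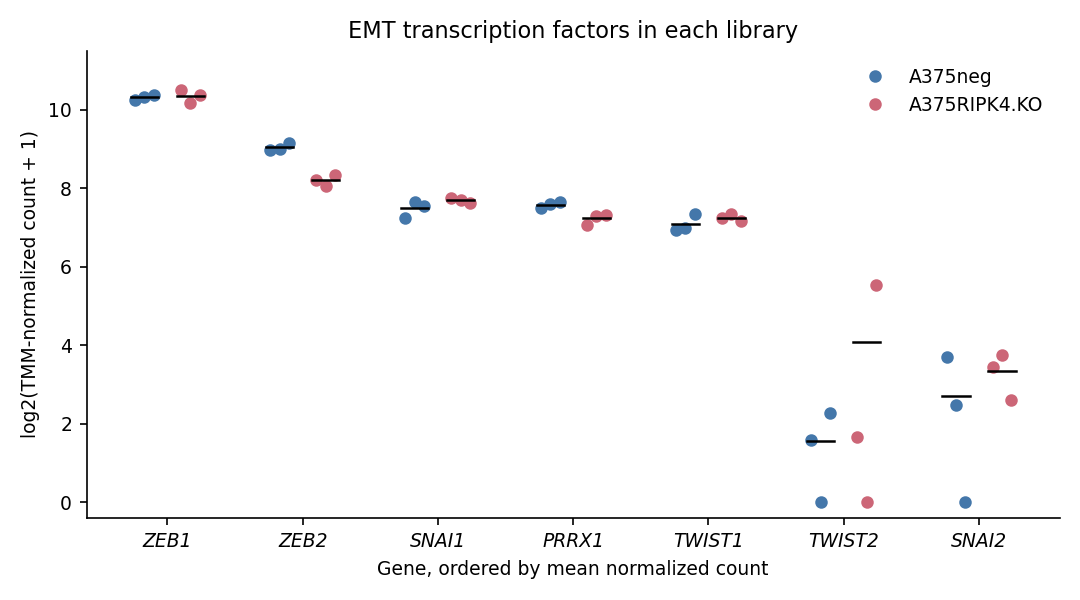
The vertical axis gives log2 of the TMM-normalized count plus 1 for each of the 7 members with a row, ordered along the horizontal axis by mean. Each point is 1 library (blue A375neg, red A375RIPK4.KO) and each black line marks the group mean. The ZEB2 and PRRX1 points of the knockout lie below those of the control, the other 5 genes overlap, and 1 knockout library stands apart for TWIST2.

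ZEB2, a zinc finger E-box-binding repressor needed for neural crest and melanocyte development, fell in the knockout. ZEB2 (chr2:144384081-144520119, minus strand) had 503, 551 and 594 raw counts in the A375neg libraries and 271, 252 and 318 in the A375RIPK4.KO libraries. Every knockout library lay below every control library. The normalized count was 524 ± 33.4 in A375neg and 294 ± 29.8 in A375RIPK4.KO (SD, n = 3 each), a log2 fold change of -0.84 with a 95% interval from -1.08 to -0.59 (edgeR adjusted p = 0.000769). In bulk RNA, fewer cells that express ZEB2 and less ZEB2 RNA per cell cannot be told apart. ZEB2 was called in each of 10 alternative fits, with an adjusted p between 3.62e-08 (DESeq2) and 0.00638.

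ZEB1, its paralogue, which binds the same E-boxes, did not pass the test. ZEB1 (chr10:31318417-31529804, plus strand) had 1205, 1399 and 1391 raw counts in the A375neg libraries and 1327, 1096 and 1298 in the A375RIPK4.KO libraries. The groups overlapped, with replicate 2 of the knockout as the lowest library and replicate 2 of the control as the highest in raw counts. The normalized count was 1271 ± 58.9 in A375neg and 1304 ± 154 in A375RIPK4.KO, a log2 difference of 0.036 with a 95% interval from -0.17 to 0.24 (edgeR adjusted p = 0.83). The sign of so small a difference was not stable: it turned to -0.00029 without A375neg replicate 1 and to -0.045 without A375RIPK4.KO replicate 1. The intervals of the ZEB1 and ZEB2 changes did not overlap.

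The balance of the pair was therefore compared within each library, where sequencing depth cancels. The raw ZEB1 to ZEB2 ratio was 2.40, 2.54 and 2.34 in the A375neg libraries and 4.90, 4.35 and 4.08 in the A375RIPK4.KO libraries. No knockout library came near the control range. As a share of the counts of both genes, ZEB1 made up 70.6%, 71.7% and 70.1% in the control, with 95% Wilson intervals that lay between 68.0% and 73.7%. In the knockout its share was 83.0%, 81.3% and 80.3%, with intervals between 78.3% and 84.8%. These intervals cover counting error only. The log2 ratio was 1.28 ± 0.060 in A375neg and 2.15 ± 0.13 in A375RIPK4.KO (SD, n = 3 each), a difference of 0.87 or 1.83-fold (exact two-sided permutation p = 0.1, the smallest value that 3 against 3 libraries allow). The ratio combines a lower ZEB2 count with a ZEB1 count that did not pass the test. It compares read counts of transcripts of unequal length, so its level is not a ratio of molecules.

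**Figure D2:**
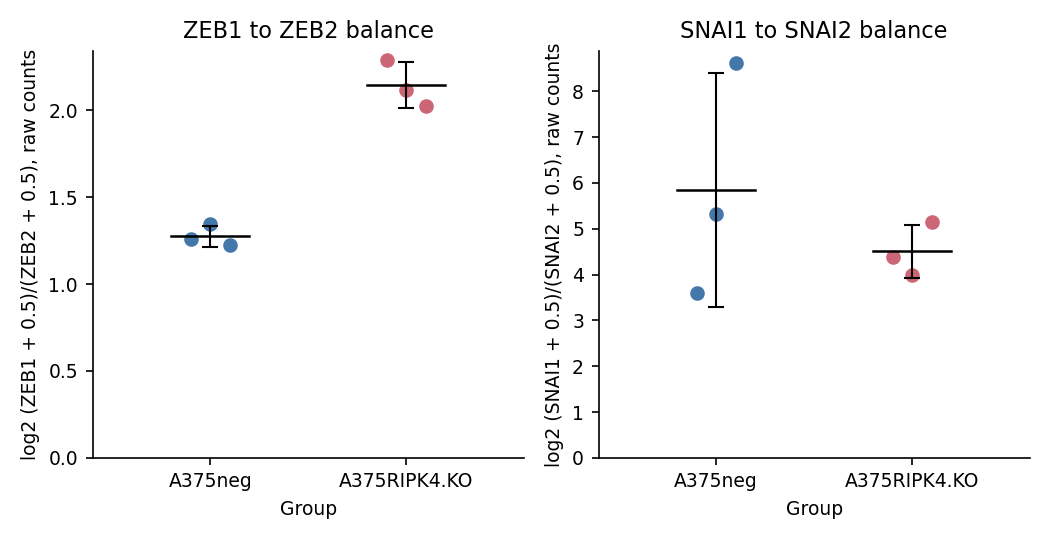
Each panel plots the log2 ratio of raw counts plus 0.5 for a pair of paralogues in each library (points), with the group mean (line) and SD (bars), for A375neg and A375RIPK4.KO. The ZEB1 to ZEB2 ratios of the knockout, 4.08 to 4.90, all lie above the control range of 2.34 to 2.54, whereas the SNAI1 to SNAI2 groups overlap.

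In the SNAIL family, SNAI1 was expressed and SNAI2 was at the edge of detection. SNAI1, which encodes SNAIL (chr20:49982980-49988886, plus strand), had 150, 218 and 196 raw counts in the A375neg libraries and 197, 199 and 193 in the A375RIPK4.KO libraries. The groups overlapped, and the control libraries were spread more widely than the knockout libraries. The normalized count was 179 ± 26.1 in A375neg and 206 ± 9.91 in A375RIPK4.KO, a log2 difference of 0.20 with a 95% interval from -0.14 to 0.55 (edgeR adjusted p = 0.415). SNAI2, which encodes SLUG and is known in melanocytes as a factor of the normal lineage (chr8:48917598-48921429, minus strand), had 12, 5 and 0 raw counts in the A375neg libraries and 9, 12 and 5 in the A375RIPK4.KO libraries. A count of 0 in A375neg replicate 3 allows up to 3 counts at that depth. The log2 difference of SNAI2 was 0.73 with a 95% interval from -1.23 to 2.69 (edgeR adjusted p = 0.623), an interval that holds both falls and rises. Leaving out 1 library moved it from 0.15 (without A375neg replicate 3) to 1.91 (without A375neg replicate 1).

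The SNAI1 to SNAI2 balance gave no separation. The log2 ratio was 5.84 ± 2.56 in A375neg and 4.50 ± 0.58 in A375RIPK4.KO (SD, n = 3 each), a difference of -1.34 (exact two-sided permutation p = 0.6). It rested on A375neg replicate 3, the library without SNAI2 counts, and became 0.053 when that library was left out. Pooled over libraries, SNAI2 had 17 counts beside 564 of SNAI1 in the control, and 26 beside 589 in the knockout. SNAI1 thus made up 97.1% of the pair's counts in A375neg and 95.8% in A375RIPK4.KO.

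TWIST1, a bHLH factor of mesoderm and neural crest (chr7:19113047-19117636, minus strand), had 121, 136 and 169 raw counts in the A375neg libraries and 137, 154 and 141 in the A375RIPK4.KO libraries. In raw counts the knockout libraries lay within the control range. Its normalized count was 135 ± 21.5 in A375neg and 151 ± 8.97 in A375RIPK4.KO, a log2 difference of 0.16 with a 95% interval from -0.22 to 0.54 (edgeR adjusted p = 0.579). TWIST2, its paralogue (chr2:238848085-238910534, plus strand), had 2, 0 and 4 raw counts in the A375neg libraries and 2, 0 and 45 in the A375RIPK4.KO libraries. A375RIPK4.KO replicate 3 alone stood apart, and the other 5 libraries had at most 4 counts. TWIST2 did not pass the filter on low counts, and without that filter its log2 difference was 2.99 (edgeR adjusted p = 0.219). A second row for a near-identical copy of TWIST2, on a fix scaffold of the assembly, had 4, 5 and 2 counts in the control and 3, 1 and 3 in the knockout, so the count of TWIST2 is uncertain to the extent that reads were divided between the rows. The sum of both rows was 6, 5 and 6 in the control and 5, 1 and 48 in the knockout, and the single high library remained.

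PRRX1, a homeobox factor of mesenchyme (chr1:170662768-170739421, plus strand), had 178, 210 and 209 raw counts in the A375neg libraries and 122, 150 and 156 in the A375RIPK4.KO libraries. The groups did not overlap, as for 36.5% of all genes tested. The normalized count was 189.8 ± 10.5 in A375neg and 149 ± 13.9 in A375RIPK4.KO, a log2 difference of -0.35 with a 95% interval from -0.67 to -0.018. After adjustment over all genes the difference did not pass the threshold (edgeR unadjusted p = 0.0408, adjusted p = 0.146), and it did not pass in any of 10 alternative fits, where the adjusted p ranged from 0.147 to 0.303.

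**Figure D3:**
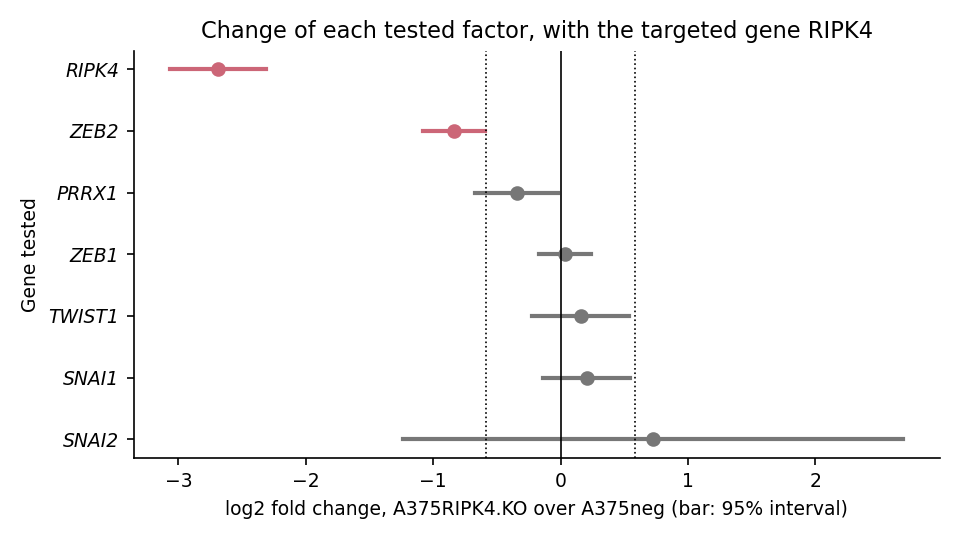
The horizontal axis gives the log2 fold change of A375RIPK4.KO over A375neg for RIPK4 and the 6 tested members, listed on the vertical axis. Bars are 95% intervals, dotted lines mark 1.5-fold either way, and red marks called genes. ZEB2 and the targeted gene RIPK4 are called, the ZEB1 interval from -0.17 to 0.24 lies inside the dotted lines, and the SNAI2 interval is the widest.

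GRHL2, a grainyhead factor that maintains epithelial junction genes (chr8:101492439-101681200), and OVOL1, a zinc finger repressor of ZEB1 in epithelia (chr11:65787063-65797214), had no row. The lowest total of any listed gene was 4 counts over the 6 libraries, and no value is given for either. A list of 12 other epithelial transcription factors was checked, of which 8 had a row and 5 were tested. GRHL1 was the only tested paralogue of GRHL2 or OVOL1. 3 of the 5 were called, against 9.04% of all genes: 3 fell, against 4.65%, and 0 rose (edgeR; at an unadjusted p under 0.05, 4 fell and 0 rose; DESeq2 called 3). The median log2 fold change was -0.59. Counts at an unadjusted p, here and below, are given without the share of all genes and are not a test of the list. KLF4, a zinc finger factor of differentiating epithelia, had 366, 340 and 362 raw counts in A375neg and 109, 128 and 135 in A375RIPK4.KO, a log2 fold change of -1.39 ± 0.13 (SE; edgeR adjusted p = 0.000132). KLF5, a factor of proliferating basal epithelium, fell by 0.59 on the log2 scale (edgeR adjusted p = 0.000664), next to the 1.5-fold limit, and its call was lost in 4 of 10 alternative fits. GRHL1, a grainyhead paralogue, fell from 78, 46 and 40 raw counts to 25, 20 and 21 (edgeR adjusted p = 0.044), a call lost in 5 of 10 alternative fits, each with 1 library left out and with an adjusted p of up to 0.15. Without A375RIPK4.KO replicate 1 or replicate 2 the list had 1 call. OVOL2 had at most 2 and GRHL3 at most 8 raw counts in any library.

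Among 12 other transcription factors linked to EMT, 9 had a row and 8 were tested. 1 of the 8 was called in either direction, near the 9.04% of all genes: 1 rose and 0 fell (edgeR; at an unadjusted p under 0.05, 2 rose and 0 fell; DESeq2 called 1). The median log2 fold change was 0.018. The riser was SOX9, an SRY-box factor of neural crest and cartilage, with 19, 12 and 14 raw counts in A375neg and 87, 72 and 113 in A375RIPK4.KO, a log2 fold change of 2.71 ± 0.29 (SE; edgeR adjusted p = 0.000277). Its lowest knockout library lay well above its highest control library. HMGA2, a chromatin protein that binds AT-rich DNA and was named after its values were seen, had an adjusted p of 0.0055 by edgeR with a log2 difference of 0.30, under the 1.5-fold limit. FOXC1, FOXC2, GSC, SOX4 and LEF1 were tested and not called.

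TWIST proteins act as dimers with E proteins (TCF3, TCF4, TCF12), and ID proteins sequester E proteins and so oppose bHLH factors. Of 9 such partners, 6 had a row and were tested, 1 was higher and 2 were lower (3 of 6 against 9.04% of all genes), with a median log2 fold change of 0.12. ID1 had 884, 900 and 1067 raw counts in A375neg and 426, 493 and 462 in A375RIPK4.KO, a log2 fold change of -0.91 ± 0.095 (SE; edgeR adjusted p = 0.000221). ID2 had 56, 84 and 68 raw counts in A375neg and 26, 36 and 29 in A375RIPK4.KO, a log2 fold change of -1.05 ± 0.24 (SE; edgeR adjusted p = 0.0181). The control and knockout libraries did not overlap for either ID gene, as for 5 of the 6 tested partners and 36.5% of all genes tested. ID3 had no row. The ID2 call was lost in 4 of 10 alternative fits, each with 1 library left out. HAND2, a bHLH factor of heart and limb that forms dimers with E proteins, rose from 26, 34 and 37 raw counts to 72, 72 and 87, a log2 fold change of 1.39 ± 0.22 (SE; edgeR adjusted p = 0.00282). The E proteins were not called, with log2 differences of 0.22 for TCF3, 0.33 for TCF4 (edgeR adjusted p = 0.0581) and 0.014 for TCF12.

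Corepressors and chromatin partners that SNAIL and ZEB proteins recruit, such as CtBP, LSD1 (KDM1A), the histone deacetylases and Polycomb subunits, were represented by 17 genes with a row, of which 16 were tested. 1 of 16 was called in either direction, near the 9.04% of all genes: 1 rose and 0 fell (edgeR; at an unadjusted p under 0.05, 3 rose and 4 fell; DESeq2 called 1). The median log2 fold change was -0.030. The riser was WTIP, an Ajuba-family LIM protein, with 67, 67 and 40 raw counts in A375neg and 155, 177 and 199 in A375RIPK4.KO, a log2 fold change of 1.74 ± 0.23 (SE; edgeR adjusted p = 0.000888). EHMT2 was not tested, and its reads can be divided among 6 further rows of the same gene. The row used had 0, 0 and 0 raw counts in A375neg and 1, 333 and 2 in A375RIPK4.KO, where replicate 2 alone stood apart. The machinery that modifies SNAIL, ZEB and TWIST proteins or sets their stability (F-box proteins, GSK3 kinases, SIAH and MDM2 ligases, deubiquitinases) had 20 genes with a row and 19 tested. None of the 19 was called by edgeR or DESeq2, against 9.04% of all genes called by edgeR. At an unadjusted p under 0.05, 7 were higher and 2 lower, again without the share of all genes. The median log2 fold change was 0.051. Protein levels were not part of these data.

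A list of antisense and host genes had 5 rows of 8, 4 of them tested. Those tested were ZEB1-AS1, MIR34AHG, MIR17HG and SNHG12, of which only ZEB1-AS1 is named after a member. Of these, 0 were called by edgeR, against 9.04% of all genes, and 1 by DESeq2. At an unadjusted p under 0.05, 0 were higher and 1 lower. Both the DESeq2 call and the lower gene were SNHG12. ZEB1-AS1, transcribed opposite to ZEB1, had 59, 64 and 28 raw counts in A375neg and 59, 64 and 64 in A375RIPK4.KO (log2 difference 0.44, edgeR adjusted p = 0.384). A375neg replicate 3 was the low library, and in normalized counts the knockout libraries (64.5 to 66.8) lay above the control libraries (26.5 to 59.0). ZEB2-AS1 had no row. The libraries keep strand, but the strand setting of the counting is not given in the sources used here, so reads of ZEB1 and ZEB1-AS1 may be shared where they overlap.

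Genes that EMT factors act on were counted next. Of 33 epithelial genes repressed in EMT, 24 had a row and 16 were tested, 2 rose and 1 fell (3 of 16 against 9.04% of all genes), and the median log2 fold change was -0.0076. CDH1, the E-cadherin gene and a classical target of SNAIL and ZEB repression, had no row. DSP, which encodes the desmosomal linker desmoplakin, had 348, 437 and 391 raw counts in A375neg and 538, 552 and 673 in A375RIPK4.KO, a log2 fold change of 0.72 ± 0.10 (SE; edgeR adjusted p = 0.0013). CLDN1, a tight junction claudin, had 90, 73 and 93 raw counts in A375neg and 141, 140 and 153 in A375RIPK4.KO, a log2 fold change of 0.89 ± 0.18 (SE; edgeR adjusted p = 0.00862). MUC1, a transmembrane mucin, moved the other way, with 94, 92 and 105 raw counts in A375neg and 48, 47 and 31 in A375RIPK4.KO (log2 fold change -1.07 ± 0.24, SE; edgeR adjusted p = 0.0155). For none of the 3, named because they were called, did the groups overlap. The same held for 8 of the 16 tested genes of the list and 36.5% of all genes tested. The MUC1 call was lost without A375neg replicate 3 or A375RIPK4.KO replicate 3.

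Promoter windows of the epithelial and mesenchymal genes with a row were searched for the same E-box, CAGGTG or CACCTG. At least 1 window with a match was found for 9 of the 13 such epithelial genes in the promoter table, 3 of the 19 mesenchymal genes and 24.1% of all 27305 genes there. These lists were drawn up from known targets of EMT factors, so the shares describe the lists and were not tested. Of the called epithelial genes, DSP and MUC1 had windows with matches, 2 each, and were called in opposite directions. Other genes of the list that were not called or not tested held matches too, such as CRB3 with 5, and are not shown. For DSP and MUC1 the window with the most matches is shown (matches in capitals, RefSeq, GRCh38.p14).
DSP promoter, chr6:7541421-7541720, plus strand: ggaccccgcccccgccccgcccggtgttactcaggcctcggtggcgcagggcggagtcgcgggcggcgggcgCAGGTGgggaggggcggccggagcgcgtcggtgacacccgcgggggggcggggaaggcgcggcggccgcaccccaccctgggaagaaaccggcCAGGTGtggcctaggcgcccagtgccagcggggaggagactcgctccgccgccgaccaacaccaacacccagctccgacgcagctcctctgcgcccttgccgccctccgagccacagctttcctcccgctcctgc
MUC1 promoter, chr1:155192866-155193165, minus strand: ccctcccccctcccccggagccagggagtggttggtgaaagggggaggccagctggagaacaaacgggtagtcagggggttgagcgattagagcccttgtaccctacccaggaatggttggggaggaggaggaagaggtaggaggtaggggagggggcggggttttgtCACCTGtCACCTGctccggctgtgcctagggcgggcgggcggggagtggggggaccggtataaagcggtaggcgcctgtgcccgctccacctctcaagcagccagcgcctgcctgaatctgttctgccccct
The CLDN1 window held 0 matches.

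Of 32 mesenchymal genes raised in EMT, 28 had a row and 24 were tested, 4 rose and 6 fell (10 of 24 against 9.04% of all genes), and the median log2 fold change was 0.028. TPM1, a tropomyosin of actin filaments, rose by a log2 fold change of 1.10 ± 0.066 (SE; edgeR adjusted p = 8.98e-06). MMP14, a membrane-bound matrix metalloproteinase, had 4902, 5164 and 5669 raw counts in A375neg and 833, 1079 and 1002 in A375RIPK4.KO, a log2 fold change of -2.30 ± 0.089 (SE; edgeR adjusted p = 8.14e-07). MMP2, the gelatinase that MMP14 activates, had a log2 fold change of -1.34 ± 0.086 (SE; edgeR adjusted p = 1.25e-05). VIM, CDH2 and FN1, given whether called or not, were not called. VIM (vimentin) differed by 0.049 on the log2 scale (edgeR adjusted p = 0.693), CDH2 (N-cadherin) by 0.38 (edgeR adjusted p = 0.016, under 1.5-fold) and FN1 (fibronectin) by 0.58 (edgeR adjusted p = 0.0521). Other structural genes of the list were called in either direction. TPM1, above, was higher. ACTA2, named after its values were seen and not by its rank, was lower (log2 fold change -1.15, edgeR adjusted p = 0.00246). FN1 passed both limits when A375RIPK4.KO replicate 2 was left out, the knockout library with its lowest count, 14167 beside 21701 and 25042.

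In melanoma the same factors are read against the melanocyte program. Of 12 melanocyte-state genes, 8 had a row and 7 were tested. 1 of the 7 was called in either direction, near the 9.04% of all genes: 1 rose and 0 fell (edgeR; at an unadjusted p under 0.05, 1 rose and 2 fell; DESeq2 called 1). The median log2 fold change was -0.18. MITF, the master regulator of melanocytes, had 500, 440 and 535 raw counts in A375neg and 326, 288 and 376 in A375RIPK4.KO, with a log2 difference of -0.44 under the 1.5-fold limit (edgeR adjusted p = 0.0449). SOX10, a neural crest factor upstream of MITF, had a log2 difference of -0.20 (edgeR adjusted p = 0.0507). EDNRB, the endothelin receptor of melanoblasts, rose from 175, 219 and 189 raw counts to 351, 417 and 351 (log2 fold change 1.08 ± 0.13, SE; edgeR adjusted p = 0.000458). Of 12 genes of the undifferentiated state, all tested, 4 rose and 2 fell (6 of 12 against 9.04% of all genes), with a median log2 fold change of 0.23. The risers were CCN2 (log2 fold change 1.78) and CCN1 (0.94), which encode matricellular proteins, JUN (1.13), an AP-1 subunit, and SOX2 (1.89), a pluripotency factor. NGFR, a neural crest receptor, and WNT5A, a noncanonical WNT ligand, both named after their values were seen, had log2 fold changes of -3.03 and -1.19.

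The cell identity of the libraries was checked with marker genes. Of 9 melanoma markers, 6 had a row, SOX10 was abundant (7448 to 10056 raw counts) and PMEL was low (3 to 22 raw counts), and MLANA and TYR had no row. The summed normalized count of the melanoma markers was 9502 to 10266 in A375neg and 8177 to 8593 in A375RIPK4.KO, with 2 of 5 tested genes lower (S100B and S100A1). Keratinocyte markers summed to 1755 to 1845 in the control and 1308 to 1623 in the knockout, and without KRT10 to 469 to 569 in the control and 140 to 168 in the knockout, with KRT14 lower. Of the leukocyte markers, PTPRC had at most 3 raw counts, LYZ was lower, and CD68, at 1033 to 1251 raw counts, was not called. With CD68 their sum was 1071 to 1224 in the control and 1174 to 1260 in the knockout, and without it 33.2 to 38.0 and 0 to 14.2. Of 3 endothelial markers PECAM1 was lower, with sums of 32.0 to 36.0 and 6.08 to 12.0. Fibroblast markers summed to 98.6 to 130 in the control and 101 to 121 in the knockout, with 0 of 2 called by edgeR. The melanoma, keratinocyte and endothelial sums were lower in the knockout, as were ZEB2, KLF4 and the ID genes, and their part in those results was not tested. Most of the melanoma sum was SOX10, which was not called. Its mean normalized count was 9128 in A375neg and 7962 in A375RIPK4.KO. The leukocyte sum was lower only without CD68.

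Genes whose depth-scaled log2 counts followed each member across the 6 libraries were listed by Pearson correlation. The candidates were 10733 protein-coding genes averaging 50 counts or more (10734 for SNAI2). These correlations mix the difference between groups with that within groups, share libraries and depth, and carry no test. Among the closest to ZEB2 were MOB3C and WNT5A (r = 0.999 each), and 450 genes exceeded 0.95, since many genes follow the 2 groups. PRRX1 was followed by CPNE3 (r = 0.998), OTUD6B and PCBD2, with 113 genes above 0.95. ZEB1 was followed by SRGAP1 (r = 0.975), TRMT13 and API5, with 16 genes above 0.95, and SNAI1 by RHBDD1 (r = 0.995), SMAP1 and HSPA2, with 24. TWIST1 was followed by DLC1 (r = 0.990), DYNC2LI1 and ZNF768, with 12, and SNAI2, at its few counts, by DDX11 (r = 0.986), ZNF443 and AKIRIN2, with 22. Of the genes named here for their likeness to a member, only WNT5A was called. SNAI2 and TWIST2 were too low to be candidates. ZEB1, ZEB2, SNAI1, TWIST1 and PRRX1 were candidates for one another, and none was among the closest genes listed for another member. The lists hold only the closest genes, so they do not give the correlations between members.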

How the data were processed

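RNA-seq libraries of A375neg and A375RIPK4.KO cells were prepared, sequenced and processed by the authors' provider. The raw counts per gene were deposited without normalization, and the submitters' processing notes name cutadapt, FastQC, HISAT2, HTSeq and DESeq2 with the build GRCh38.p13. Versions and the strand setting are not given in the sources used here. The same table holds normalized counts (a signal scaled by the authors to 1 size factor per library) and the authors' own comparison, namely a fold ratio, its log2 value, a standard error and a Wald score, and a p-value; none of these deposited columns was used. No column belonged to samples outside the series.

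The groups were tested on raw counts by the quasi-likelihood method of edgeR 4.0.16 (R 4.3.3), with TMM scaling and filterByExpr, over 14443 genes, with all 6 libraries and no covariate. Fits were tested on simulated counts. Alternatives were DESeq2 1.42.0, its size factors in edgeR, no filter, a block for the replicate number, the omission of each library and no fold limit. Balances used log2 ratios of raw counts plus 0.5 (alternative 1) and exact permutation tests in scipy 1.17.1. Lengths are those of 1 GENCODE transcript per gene, the longest linked to a curated RefSeq mRNA. Intervals cover counting error or the spread between libraries of 1 clone.

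The members and the gene lists were chosen with earlier results of these data known. Named genes were the members, RIPK4, up to 4 called genes per list by adjusted p, a set of lineage genes given whether called or not, and the 3 genes most correlated with each tested member. Some genes that this rule covers are not reported here.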

Additional observations from a re-analysis of the deposited data

How the results depend on the processing

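ZEB2 was called under every alternative tried, with leave-one-out log2 fold changes from -0.91 to -0.76, and the ZEB1 to ZEB2 difference stayed between 0.80 and 0.93 on the log2 scale when each library was left out. A number of calls was taken as kept within 1.5 times its main value. On that footing, 10 of 20 results kept their direction and their side of the threshold, or their number of calls, in every alternative, and 193 of 208 alternative values did so. ZEB1, from -0.045 to 0.13 with a library left out, changed sign (-0.00029 without A375neg replicate 1 and -0.045 without A375RIPK4.KO replicate 1), and the SNAI1 to SNAI2 difference, -2.46 to 0.053 when each library was left out, changed sign without A375neg replicate 3, the library with 0 SNAI2 counts. Without a fold limit, 2403 of the 14443 genes tested passed, in place of 1306 with it. With the limit kept, leaving out a library gave 1059 to 1336. Among lists whose number moved without the limit, other EMT-linked factors gave 2 of 8 tested, corepressors 3 of 16 and protein turnover 4 of 19. Epithelial genes gave 5 of 16 and melanocyte-state genes 2 of 7. These numbers are to be read beside the 2403 of 14443. With a library left out, the other epithelial factors gave 1 to 2 calls in place of 3, protein turnover 0 to 1 (1 without A375RIPK4.KO replicate 3) and the antisense and host genes 0 to 1 (1 without A375RIPK4.KO replicate 1 or 2, and 1 by DESeq2). The cause was not tested. Deviations of same-numbered libraries from their group means were little correlated over the tested genes (r = 0.082, 0.036 and -0.012). Not every library correlated best with its own number. The labels do not say whether same-numbered libraries were grown or prepared together, and these correlations cannot show it. With the replicate block, 1266 genes and 1 member (ZEB2, edgeR adjusted p = 0.00128) were called, and the ZEB1 to ZEB2 difference had an exact sign-flip p of 0.25, the smallest that 3 pairs allow. Low counts limit the precision of SNAI2 and TWIST2.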
